A study of Mus musculus with 27 samples.

Results

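Epithelial cell contact rests on a small set of genes, and 10 of them were followed here through the reprogramming of mouse fibroblasts. They were chosen by symbol, and all 10 were found among the 20156 genes of the expression tables. Cdh1 encodes E-cadherin, which joins epithelial cells at the adherens junction. Epcam encodes an adhesion molecule of epithelia and of pluripotent cells. Ocln encodes occludin, and Cldn3, Cldn4, Cldn6 and Cldn7 encode claudins, which form the strands of the tight junction. Esrp1 and Esrp2 encode splicing regulators that set the epithelial form of many transcripts, and Grhl2 encodes a transcription factor that activates epithelial genes. Fibroblasts are mesenchymal and grow without such junctions, whereas colonies of pluripotent cells are held together by E-cadherin. The passage from one state to the other is known as the mesenchymal-to-epithelial transition. Transcription factors of the Snail, Zeb and Twist families repress Cdh1, the Snail and Zeb proteins by binding E-box motifs in its promoter.

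The study profiled mouse embryonic fibroblasts (MEFs), partially reprogrammed cells (pre-iPSCs) and induced pluripotent stem cells (iPSCs) by RNA-seq and by MNase ChIP-seq of histone H3 and of H3K4me3, H3K27me3 and H3K9me3, in 27 libraries. H3K4me3 marks promoters of active genes, H3K27me3 is laid down by Polycomb repression and H3K9me3 marks heterochromatin. Each cell type has 2 RNA libraries and 2 libraries of H3, H3K4me3 and H3K27me3, and 1 library of H3K9me3. The study's methods call the pairs biological replicates. The labels mark the second library of a pair as a repeat and do not say from which clone or culture it came, so p-values measure the spread between these libraries.

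The MEFs came from e13.5 embryos that carried 1 copy of an Oct4-GFP reporter transgene and of a Rosa26 allele. The labels give the genetic background as CBA/CaJ and C57BL/6J, and by the study's methods the mothers were of a further inbred strain. The reporter, the Rosa26 allele and the background are therefore shared by all 3 cell types. MEFs were used within 3 passages. Pre-iPSCs and iPSCs were made from such MEFs with the Yamanaka factors carried by retrovirus. They are stable clones, a pair of pre-iPSC clones and the iPSCs obtained from them, and were grown for 6 passages in medium with serum and leukemia inhibitory factor. By the study's methods both were expanded on a feeder layer of MEFs, which the labels name for iPSCs. The chromatin of MEFs was digested with another amount of MNase and for another time than that of pre-iPSCs and iPSCs, so cell type and digestion cannot be told apart in any ChIP-seq difference from MEFs.

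The markers of each cell type were checked first. The 8 fibroblast genes summed to 4250 and 4103 FPKM (fragments per kilobase of transcript, normalised to the mapped fragments of the library) in the 2 MEF libraries, against 93.8 to 305 FPKM in pre-iPSCs and iPSCs. They did not reach 0 there: 7 of 8 stayed at 1 FPKM or more in both pre-iPSC libraries and 8 of 8 in both iPSC libraries. Dcn, a collagen-binding proteoglycan of fibroblasts, stood at 30.2 and 40.5 FPKM in iPSCs, against 9.005 and 36.6 FPKM in MEFs. The part of feeder RNA in the values below was not tested. Of 8 pluripotency genes, 8 reached 1 FPKM in both iPSC libraries and 4 in both pre-iPSC libraries, and Nanog was at 49.5 and 73.6 FPKM in iPSCs but at 0.519 and 0 FPKM in pre-iPSCs. Pou5f1, which encodes the delivered factor Oct4, was 1 of these 4, at 378 and 3184 FPKM in pre-iPSCs. Its FPKM do not tell transcripts of the retrovirus from those of the cells' own gene. Stratified epithelium genes were low except in pre-iPSCs, where 5 genes summed to 112 and 21.8 FPKM, mostly through Krt17. The 8 extraembryonic endoderm genes summed to 5.01 to 12.3 FPKM in pre-iPSCs and iPSCs and to more in MEFs, 34.1 and 29.7 FPKM. The sum in MEFs was mostly Dab2, at 31.3 and 27.4 FPKM. In these bulk samples, fewer cells of a type and less RNA per cell cannot be told apart.

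The promoters of 9 of the 10 genes, all but Esrp1, were read from the mm9 genome as the 250 bases before the transcription start site (TSS), because the Snail and Zeb proteins are known to bind the E-box CAGGTG in the Cdh1 promoter. CAGGTG on either strand was found in 7 of the 9 promoters, all but those of Cldn3 and Esrp2, and in 3305 of 20156 promoters over all genes (16.4%). The motif was chosen because of Cdh1, so the match of Cdh1 among the 7 was known beforehand. The binding motif of Grainyhead proteins, AACCGGTT, was in 0 of the 9 and in 27 of all promoters (0.134%). The promoters compared were not matched for base composition. A match is only a run of letters, and binding was not measured in these libraries. 5 promoters are shown 5′ to 3′ on the gene's own strand, with each CAGGTG or its reverse complement CACCTG in capitals: the 2 genes with the highest level in iPSCs, 2 claudins that differ in when they turn on, and the splicing regulator Esrp2, which has no match.
Cdh1 (chr8:109127018-109127267, plus strand): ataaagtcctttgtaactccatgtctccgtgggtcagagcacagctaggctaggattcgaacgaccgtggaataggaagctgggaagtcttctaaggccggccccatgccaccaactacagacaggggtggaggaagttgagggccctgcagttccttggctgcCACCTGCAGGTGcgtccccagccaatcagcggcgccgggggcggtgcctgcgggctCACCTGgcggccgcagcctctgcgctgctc
Epcam (chr17:88035069-88035318, plus strand): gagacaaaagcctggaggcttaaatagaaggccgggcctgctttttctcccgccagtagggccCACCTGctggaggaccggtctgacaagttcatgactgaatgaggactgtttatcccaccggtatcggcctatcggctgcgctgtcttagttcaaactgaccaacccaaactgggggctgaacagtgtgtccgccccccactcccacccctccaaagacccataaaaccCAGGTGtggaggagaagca
Cldn4 (chr5:135422805-135423054, minus strand): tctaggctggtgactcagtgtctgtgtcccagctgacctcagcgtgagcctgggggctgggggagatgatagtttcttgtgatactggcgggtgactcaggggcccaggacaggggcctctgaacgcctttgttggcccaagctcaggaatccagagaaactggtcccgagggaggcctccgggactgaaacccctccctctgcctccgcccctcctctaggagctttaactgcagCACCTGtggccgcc
Cldn6 (chr17:23816082-23816331, plus strand): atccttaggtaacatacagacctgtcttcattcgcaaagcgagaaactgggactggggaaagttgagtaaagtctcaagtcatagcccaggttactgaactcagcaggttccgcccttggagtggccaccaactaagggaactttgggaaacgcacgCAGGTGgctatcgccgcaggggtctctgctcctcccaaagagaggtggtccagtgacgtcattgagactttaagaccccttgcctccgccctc
Esrp2 (chr8:108660875-108661124, minus strand): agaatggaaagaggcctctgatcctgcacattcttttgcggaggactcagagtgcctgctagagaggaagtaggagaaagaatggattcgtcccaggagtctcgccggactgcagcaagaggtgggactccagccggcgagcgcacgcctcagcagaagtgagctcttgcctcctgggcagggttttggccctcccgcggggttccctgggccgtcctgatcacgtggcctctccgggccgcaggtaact
In Cdh1 the matches begin 86, 80 and 30 bases before the TSS, and the first adjoins the second in a palindrome of both orientations. In Epcam they begin 187 and 19 bases before the TSS. In Cldn4 and Cldn6 a single match begins 14 and 93 bases before it. CpG dinucleotides also varied among the 9 genes: within 500 bases either side of the TSS, the observed over expected ratio was lowest in Cldn4, at 0.38, and in Epcam, at 0.47, and between 0.61 and 0.76 in the other 7, with a median of 0.60 over all genes. Cldn3 and Cldn4 are neighbours on chromosome 5 with TSSs 39280 bp apart, and no TSS of another gene lies in the window of 1000 bp either side of any of the 10. The window of Cldn6 overlaps at its edge that of Tnfrsf12a, whose TSS is 1916 bp away.

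The 10 genes were low in MEFs, and 8 of them were expressed in iPSCs. With a gene called on at 1 FPKM or more in both libraries of a cell type and off below 1 FPKM in both, 9 of the 10 were off in MEFs and Esrp2 was mixed. The first stage at which a gene was on was pre-iPSCs for 6 genes (Cdh1, Epcam, Cldn3, Cldn4, Esrp1 and Esrp2) and iPSCs for 3 (Ocln, Cldn6 and Cldn7), and Grhl2 was on in no cell type. From off in MEFs to on in pre-iPSCs went 5 of the 10, against 3.01% of all genes, and from off in MEFs to on in iPSCs 8 of the 10, against 4.43% of all genes. The order depends on the level chosen. At 0.5 FPKM, Ocln joined the genes on in pre-iPSCs, and at 5 FPKM only Cdh1 and Epcam remained on there.

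Expression was tested with limma on log2(FPKM + 1) over 12401 genes with the expression table as a term. A call needed at least 2-fold on that scale beside a Benjamini-Hochberg adjusted p under 0.05. Grhl2 fell below the filter of a mean of 0.5 FPKM, so 9 of the 10 were tested. In pre-iPSCs against MEFs 6 of the 9 rose and none fell, where 7.39% of all genes tested rose. In iPSCs against pre-iPSCs 4 rose and 1 fell, where 3.91% of all genes rose and 4.71% fell. In iPSCs against MEFs 8 of the 9 rose, where 10.3% of all genes rose. The median change of the 9 was 2.14, 1.73 and 3.50 on the log2 scale in the 3 comparisons, and that of all genes was -0.04, -0.09 and -0.14. Without the filter on low values the changes kept their size, but limma called 2, 3 and 5 of the 10 in the 3 comparisons. Over all genes the calls went from 2032, 1069 and 3206 to 1244, 788 and 2371, of 16963 tested. Esrp1, Cldn3, Cldn4 and Esrp2 then stood at adjusted p of 0.0504 to 0.0571 in pre-iPSCs against MEFs. With a pseudocount of 0.1 FPKM in place of 1 the counts of the 10 were 8, 5 and 8, and those of all genes were 2179, 1095 and 3436. Changes are on the log2(FPKM + 1) scale, which understates the change of genes with low values.

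Cdh1 was at 0.111 and 0 FPKM in MEF replicates 1 and 2, at 27.01 and 6.56 FPKM in pre-iPSCs and at 71.9 and 54.2 FPKM in iPSCs. The 3 cell types did not overlap, and both steps held in both libraries. It rose by 3.79 ± 0.49 (SE, limma adjusted p = 0.00362) from MEFs to pre-iPSCs and by a further 2.12 ± 0.49 (adjusted p = 0.0399) to iPSCs. The second step was 2.66-fold in replicate 1 and 8.27-fold in replicate 2. Without pre-iPSC replicate 2, the step was 1.32 with an adjusted p of 0.559, and without iPSC replicate 1 or 2 the adjusted p was 0.163 and 0.272. The call of this step also depended on the model: limma gave an adjusted p of 0.0601 without the term for the expression table and of 0.0936 without the filter on low values.

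Epcam was at 0.0501 and 0.0387 FPKM in MEFs, at 34.1 and 6.48 FPKM in pre-iPSCs and at 41.3 and 67.6 FPKM in iPSCs. It rose by 3.96 ± 0.66 (adjusted p = 0.00852) into pre-iPSCs. Pre-iPSC replicate 1 was close to the iPSC libraries and replicate 2 was far below them, and the difference of iPSCs from pre-iPSCs, 1.73 ± 0.66, did not pass the test (limma, adjusted p = 0.182). Of the 12400 other genes tested, Epcam was the nearest to Cdh1 in its values over the 6 libraries, at a Euclidean distance of 0.91 in log2(FPKM + 1). The 5 nearest genes outside the 10 were Fgf4, Zscan10, Rpp25, Bex4 and Sall4, at distances of 1.08 to 1.78. Fgf4, a growth factor of pluripotent cells, was at 0 FPKM in both MEF libraries, at 23.1 and 13.9 FPKM in pre-iPSCs and at 54.8 and 56.3 FPKM in iPSCs.

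The 4 claudins turned on at different times. Cldn4 was at 0.347 and 0.0446 FPKM in MEFs, at 4.06 and 4.40 FPKM in pre-iPSCs and at 23.4 and 39.1 FPKM in iPSCs. It rose at both steps, by 2.14 ± 0.41 (adjusted p = 0.0134) and by 2.58 ± 0.41 (adjusted p = 0.0107). The first call was lost without pre-iPSC replicate 1 or 2 (limma, adjusted p = 0.0860 and 0.0762), and the second without iPSC replicate 1 or 2 (adjusted p = 0.0547 and 0.116). Its 2 pre-iPSC libraries lay close together, unlike those of Cdh1.

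Cldn6 was listed at 0 in both MEF libraries and stood at 0.287 and 0 FPKM in pre-iPSCs. In iPSCs it was at 15.4 and 26.2 FPKM, so that its whole gain lay in the second step, 4.22 ± 0.39 (adjusted p = 0.00178). It stayed called when any single library was left out. Cldn6 was the only one of the 10 that was off in pre-iPSCs and on in iPSCs. Its neighbour Tnfrsf12a, a receptor of the tumour necrosis factor family that was named here after its values were seen, ran the other way, from 304 and 371 FPKM in MEFs to 8.52 and 23.9 FPKM in iPSCs.

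Cldn7 was listed at 0 in MEFs and was split in pre-iPSCs, at 2.03 and 0.422 FPKM. In iPSCs it was at 9.59 and 11.1 FPKM. The step into iPSCs passed the test (2.45 ± 0.42, adjusted p = 0.0138), and the difference of pre-iPSCs from MEFs, 1.05 ± 0.42, did not (adjusted p = 0.132). The step into iPSCs was not called without pre-iPSC replicate 2 (limma, adjusted p = 0.101), iPSC replicate 1 (0.0703) or iPSC replicate 2 (0.146).

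Cldn3 was at 0 and 0.269 FPKM in MEFs, at 3.39 and 15.7 FPKM in pre-iPSCs and at 4.25 and 4.29 FPKM in iPSCs. It rose into pre-iPSCs by 2.92 ± 0.51 (adjusted p = 0.00990). The difference of iPSCs from pre-iPSCs, -0.70 ± 0.51, did not pass (adjusted p = 0.509), since the pre-iPSC libraries lay on either side of the iPSC libraries. Unlike Cdh1, Epcam and Cldn7, Cldn3 was higher in replicate 2 of pre-iPSCs than in replicate 1.

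Ocln was listed at 0 in both MEF libraries. It was at 2.79 and 0.605 FPKM in pre-iPSCs and at 1.67 in both iPSC libraries. Only iPSCs against MEFs passed the test (1.42 ± 0.39, adjusted p = 0.0365), and pre-iPSCs against MEFs did not (1.30 ± 0.39, adjusted p = 0.0649). The call was lost without MEF replicate 1 (limma, adjusted p = 0.0945), iPSC replicate 1 (0.0968) or iPSC replicate 2 (0.221). It was also lost in limma without a trend (adjusted p = 0.0515) and without the filter on low values (0.0651).

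Both splicing regulators rose into pre-iPSCs, and Esrp2 fell afterwards. Esrp2 had the highest level of the 10 in both MEF libraries, at 1.21 and 0.408 FPKM. It was at 4.14 and 4.69 FPKM in pre-iPSCs and at 0.672 and 0.663 FPKM in iPSCs. It rose by 1.62 ± 0.35 (adjusted p = 0.0215) and then fell by 1.70 on the log2 scale (SE 0.35, adjusted p = 0.0282), and iPSCs did not differ from MEFs beyond the spread (-0.08 ± 0.35, adjusted p = 0.892). The rise was not called without MEF replicate 2 (limma, adjusted p = 0.0909), pre-iPSC replicate 2 (0.110) or iPSC replicate 2 (0.0526). The fall was not called without pre-iPSC replicate 2 (limma, adjusted p = 0.114), iPSC replicate 1 (0.184) or iPSC replicate 2 (0.161). Esrp1 was listed at 0 in MEFs, stood at 15.5 and 3.57 FPKM in pre-iPSCs and at 3.46 and 4.90 FPKM in iPSCs. It rose into pre-iPSCs by 3.12 ± 0.56 (adjusted p = 0.0109), and the later difference of -0.76 ± 0.56 did not pass (adjusted p = 0.515). Its pre-iPSC and iPSC libraries overlapped, and in replicate 2 iPSCs were 1.37-fold higher.

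Grhl2 was listed at 0 in MEFs, was at 0.0635 and 0.0283 FPKM in pre-iPSCs and at 0.443 and 1.14 FPKM in iPSCs. It was thus with Cldn6 among the lowest of the 10 in pre-iPSCs, and its mean was too low for the test.

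In iPSCs the order of the levels per length was Cdh1 and Epcam first, then Cldn4, Cldn6, Cldn7, Cldn3 and Esrp1, Ocln, and last Grhl2 and Esrp2. The 2 libraries of Cdh1 and Epcam overlapped, as did those of Cldn3 with Esrp1 and of Grhl2 with Esrp2, and so did Cldn4 and Cldn6. Between the other neighbours in this order the libraries were apart. In pre-iPSCs the 2 libraries differed more. Cdh1 was 4.12 times, Epcam 5.26 times, Esrp1 4.35 times, Ocln 4.62 times and Cldn7 4.81 times higher in replicate 1 than in replicate 2, whereas Cldn3 was at 0.216 times the level of replicate 2, and the ratio of Cldn4 and Esrp2 was 0.921 and 0.883. Leaving out pre-iPSC replicate 2 reduced the calls of iPSCs against pre-iPSCs from 5 to 2, and leaving out iPSC replicate 1 or 2 reduced them to 1. Over all genes the calls of this comparison went from 1069 to 729, 179 and 87 in these refits. Leaving out either iPSC library also reduced the 8 calls of iPSCs against MEFs to 5, and those of all genes from 3206 to 1117 and 1265.

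**Figure D1:**
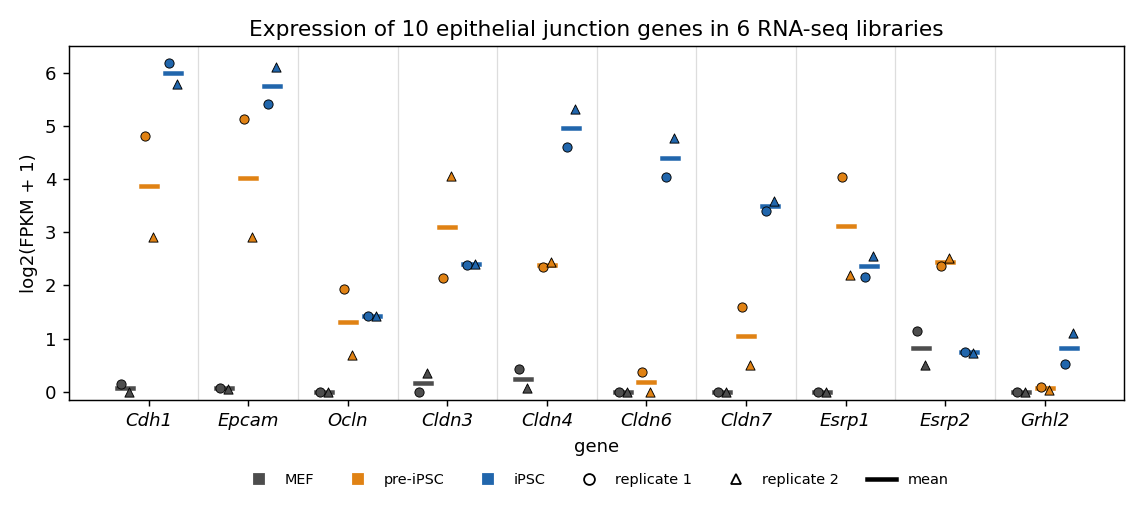
Expression of the 10 genes in the 6 RNA-seq libraries. The y axis gives log2(FPKM + 1), circles and triangles are replicates 1 and 2 and bars their mean. MEF points are at 0.347 FPKM or less for every gene but Esrp2. Cldn6 rises only in iPSCs, and Esrp2 is highest in pre-iPSCs.

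H3K27me3 at these promoters was above the median of all promoters in MEFs. Against MEFs, edgeR called 3 of the 10 lower in pre-iPSCs and 4 in iPSCs, and DESeq2 called none. Reads of called nucleosomes were counted within 1000 bp of each TSS and scaled to the window length and to the unique reads of the library (RPKM). In the 2 MEF libraries the 10 promoters were at 0.333 to 0.879 and 0.503 to 1.24 RPKM, above the median of all promoters (0.182 and 0.212 RPKM) in 10 of 10, and their median was 0.727 and 0.900 RPKM. Promoters of genes listed at 0 in both MEF libraries had a median of 0.364 and 0.344 RPKM. Esrp2, the highest of the 10 in MEF RNA, had the lowest H3K27me3 of the 10 in both MEF libraries, at the 67.0 and 77.5 percentile of all promoters. The other 9 were between the 85.8 and 99.6 percentile. Most of the 10 stayed above the median of all promoters later, 10 and 9 in the pre-iPSC libraries and 8 and 9 in the iPSC libraries.

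From MEFs to pre-iPSCs the H3K27me3 RPKM of 9 of the 10 promoters was lower without overlap of the libraries, against 17.1% of all promoters. The exception was Cldn7, with 0.879 and 1.24 RPKM in MEFs and 0.534 and 0.886 RPKM in pre-iPSCs. The edgeR quasi-likelihood test over 10410 promoters called 3 of the 10 as lower and none as higher, where 3.14% of all promoters tested were called lower and 5.16% higher. These 3 were Cldn4 (fell by 1.21 on the log2 scale, SE 0.35, adjusted p = 0.0161), Esrp1 (fell by 1.19, SE 0.37, adjusted p = 0.0266) and Grhl2 (fell by 1.21, SE 0.34, adjusted p = 0.0129). The median change of the 10 was -0.90, and that of all promoters was -0.01. These calls rest on few reads: in MEFs and pre-iPSCs the 3 promoters held 10 to 45 reads per library, and the 10 promoters 5 to 47. Without MEF replicate 2 or without pre-iPSC replicate 1 none of the 3 was called, and DESeq2 called 0 of the 10 (lowest adjusted p = 0.392). Over all promoters the calls went from 864 to 524, 417 and 44 in these refits.

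Grhl2 was at 0.879 and 1.09 RPKM of H3K27me3 in MEFs, at 0.309 and 0.550 RPKM in pre-iPSCs and at 0.749 and 0.776 RPKM in iPSCs. Its H3K27me3 was thus lower in pre-iPSCs, where its RNA stayed near 0 as in MEFs. The value of iPSCs lay between the other 2 cell types and overlapped neither. The difference of iPSCs from pre-iPSCs, 0.79 ± 0.36, did not pass the test over all promoters (edgeR, adjusted p = 0.355).

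In iPSCs against MEFs 8 of the 10 were lower in H3K27me3 RPKM without overlap, against 16.6% of all promoters. Of the 10, 4 were called lower and none higher by edgeR, where 3.87% of all promoters tested were called lower and 7.38% higher. Epcam was at 0.727 and 0.953 RPKM in MEFs, at 0.422 and 0.519 RPKM in pre-iPSCs and at 0.202 and 0.179 RPKM in iPSCs, without overlap at either step. It fell by 2.18 (SE 0.41, adjusted p = 0.000112) and had the lowest DESeq2 adjusted p of the 10, 0.0604. DESeq2 called none of the 10 and 47 of all promoters, against 1171 with edgeR. Cdh1 was at 0.727 and 0.689 RPKM in MEFs, 0.281 and 0.611 RPKM in pre-iPSCs and 0.230 and 0.388 RPKM in iPSCs, and fell by 1.24 (SE 0.39, adjusted p = 0.0258). Cldn4 was at 0.697 and 1.19 RPKM in MEFs and at 0.403 and 0.298 RPKM in iPSCs, and fell by 1.48 (SE 0.36, adjusted p = 0.00270). Cldn3 was at 0.879 and 1.03 RPKM in MEFs and at 0.490 and 0.448 RPKM in iPSCs, and fell by 1.08 (SE 0.33, adjusted p = 0.0207). Without MEF replicate 2 the calls were Cdh1 and Epcam, and without iPSC replicate 1 they were Epcam and Cldn4.

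In iPSCs against MEFs, Cldn6 and Esrp2 were the only 2 of the 10 whose H3K27me3 RPKM was not lower without overlap. Ocln, Cldn7, Esrp1 and Grhl2 were not called lower either, and differences between genes were not tested. Cldn6, which turned on in iPSCs, was at 0.606 and 0.689 RPKM of H3K27me3 in MEFs, 0.366 and 0.580 RPKM in pre-iPSCs and 0.778 and 0.686 RPKM in iPSCs. Its level in iPSCs overlapped that in MEFs (0.12 ± 0.33, adjusted p = 0.864). Esrp2, which fell in expression in iPSCs, was at 0.253 and 0.153 RPKM in pre-iPSCs and at 0.835 and 0.358 RPKM in iPSCs, a difference of 1.49 ± 0.45 that did not pass (adjusted p = 0.0916). Over the 10 promoters, iPSCs were above pre-iPSCs without overlap in 5 (Ocln, Cldn6, Esrp1, Esrp2 and Grhl2) and below in 2 (Epcam and Cldn3), against 22.5% and 14.7% of all promoters. edgeR called 0 of the 10 in this comparison and 85 of all 10410 promoters tested, and 3 of the 10 and 1193 of all had an unadjusted p under 0.05. DESeq2 called 0 of the 10 and 0 of all.

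**Figure D2:**
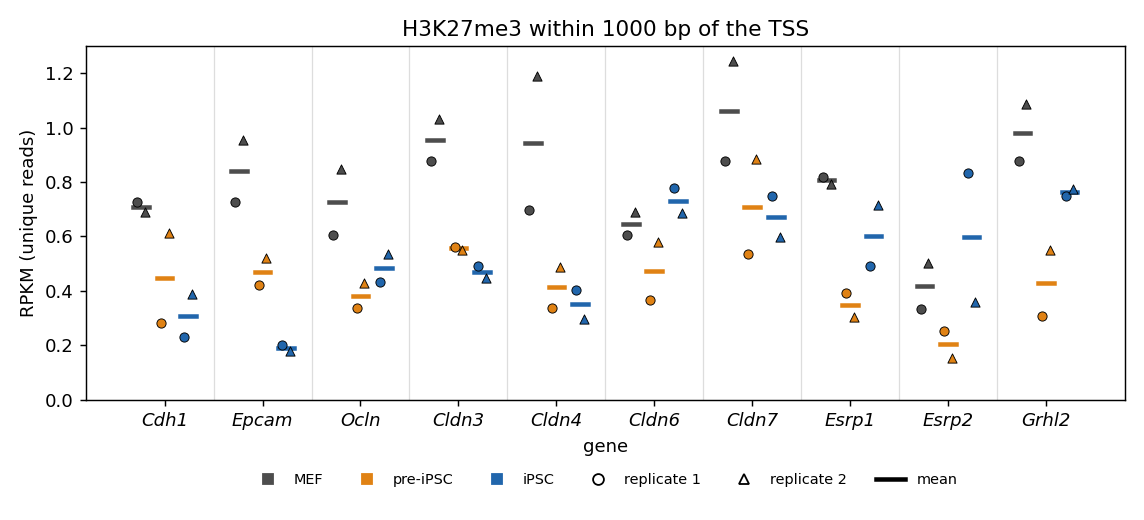
H3K27me3 RPKM within 1000 bp of the TSS of the 10 genes. Circles and triangles are replicates 1 and 2 and bars their mean. MEF points lie above both pre-iPSC points for 9 of the 10 genes, and the lowest iPSC values are those of Epcam, 0.202 and 0.179 RPKM.

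In MEFs, where the RNA of these genes was low, H3K4me3 at most of their promoters was above the median of genes listed at 0. At most of them it was also below the median of all promoters. Above 1 RPKM were 6 of the 10 in MEF replicate 1 and 3 in replicate 2. The study counts a promoter as marked above 1 RPKM, in a window of 500 bp either side. Cldn6 was above the median of genes listed at 0 in MEF replicate 1 (0.847 RPKM), but in replicate 2 it stood at that median, 0.318 RPKM. The 10 promoters were at 0.677 to 1.56 and 0.318 to 1.62 RPKM in the MEF libraries, against a median of 0.271 and 0.318 RPKM over promoters of genes listed at 0 there and of 1.96 and 1.50 RPKM over promoters of the top 5% by expression. In MEFs, 3 of the 10 were above the median of all promoters in each library. In pre-iPSCs 8 and 7 of the 10 were above it, and in iPSCs 9 of 10 in both libraries. Among the 10 the levels of the mark and of RNA did not share one order in iPSCs. Epcam, with the second highest level of RNA in iPSCs, was at 0.838 and 0.461 RPKM of H3K4me3 there, and Grhl2, with little RNA, at 1.33 and 1.28 RPKM.

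In iPSCs against MEFs edgeR called 5 of the 10 as higher in H3K4me3 and none as lower, where 9.57% of 17698 promoters tested were called higher and 4.20% lower. In RPKM 5 of the 10 were higher without overlap, against 15.5% of all promoters. Cldn7 was at 0.677 and 0.573 RPKM in MEFs, at 1.10 and 0.682 RPKM in pre-iPSCs and at 1.30 and 1.25 RPKM in iPSCs, and rose by 1.37 ± 0.31 (adjusted p = 0.00267). Cldn6 was at 0.847 and 0.318 RPKM in MEFs, at 0.613 and 0.390 RPKM in pre-iPSCs and at 1.24 and 0.888 RPKM in iPSCs, and rose by 1.23 ± 0.35 (adjusted p = 0.0139). In Cldn6 the gain lay in the second step, as its RNA did, but the difference of iPSCs from pre-iPSCs, 1.04 ± 0.35, did not pass over all promoters (adjusted p = 0.327). Cldn3 (1.03 ± 0.28, adjusted p = 0.0125), Grhl2 (0.90 ± 0.28, adjusted p = 0.0263) and Ocln (0.73 ± 0.25, adjusted p = 0.0403) rose as well. Grhl2 was at 1.25 and 0.541 RPKM in MEFs and at 1.29 and 1.23 RPKM in pre-iPSCs, and Ocln was at 1.56 and 1.31 RPKM in MEFs and at 2.27 and 1.48 RPKM in iPSCs.

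These H3K4me3 calls depended on the scaling. TMM, the normalization used here, centres the promoters, whereas scaling to unique reads puts the median promoter at -0.37 in iPSCs against MEFs and at -0.39 in pre-iPSCs against MEFs. Under it 1 of the 10, Cldn7, was called higher and none lower, and over all promoters tested 842 were called higher and 2351 lower, against 1693 and 743 under TMM. Leaving out either MEF library or iPSC replicate 1 lost some of the 5 calls, and fewer of all promoters were then called as well. DESeq2 called 0 of the 10 (lowest adjusted p = 0.112) and 138 of all promoters, against 2436 with edgeR.

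Cdh1, Epcam, Esrp1, Esrp2 and Cldn4 were not called in H3K4me3. Cdh1 was at 1.12 and 1.46 RPKM in MEFs, at 1.47 and 1.53 RPKM in pre-iPSCs and at 1.83 and 1.02 RPKM in iPSCs, so that MEFs and iPSCs overlapped. Epcam lay between 0.461 and 0.858 RPKM over all 6 libraries (0.03 ± 0.34 in iPSCs against MEFs, adjusted p = 0.962). Esrp2 was at 1.27 to 2.30 RPKM over all 6 libraries, from the 55.9 percentile of all promoters in MEF replicate 1 to the 99.4 percentile in iPSC replicate 1. In pre-iPSCs against MEFs edgeR called 0 of the 10, where 2.97% of all promoters were called higher and 0.848% lower, 6 of the 10 and 3482 of all 17698 promoters had an unadjusted p under 0.05, and DESeq2 called 0 of the 10. In iPSCs against pre-iPSCs edgeR and DESeq2 called 0 of the 10, 1 had an unadjusted p under 0.05, and over all promoters tested both tools called 0, with 1596 at an unadjusted p under 0.05 in edgeR.

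**Figure D3:**
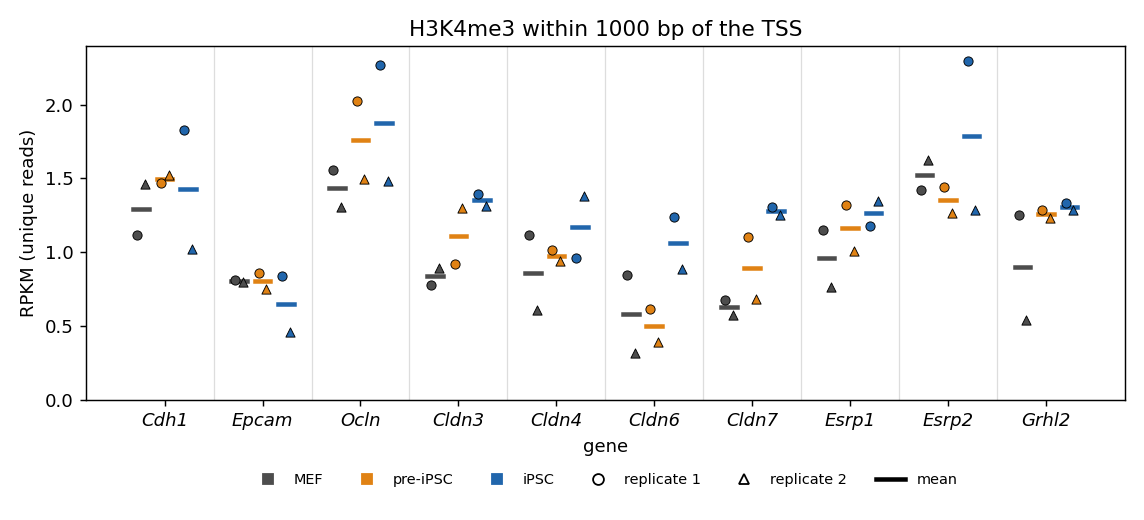
H3K4me3 RPKM within 1000 bp of the TSS of the 10 genes. Circles and triangles are replicates 1 and 2 and bars their mean. iPSC points lie above both MEF points for Cldn3, Cldn6, Cldn7, Esrp1 and Grhl2, and Epcam shows no gain.

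Occupancy by H3 itself was not called different between cell types at any of these promoters, and 2 of the 6 libraries stood apart. In pre-iPSC replicate 1 the 10 promoters held 203 to 456 reads and in iPSC replicate 1 92 to 260 reads, against 22 to 82 reads in the other 4 H3 libraries. The median of all promoters was 0.550 and 0.408 RPKM in these 2 libraries and 0.204 to 0.238 RPKM in the other 4. Their pattern over promoters was also reversed. Genes listed at 0 had medians of 0.173 and 0.240 RPKM in these 2, below the top 5% by expression at 0.489 and 0.388 RPKM. In the other 4 the genes listed at 0 were at 0.281 to 0.315 RPKM and the top 5% at 0.153 to 0.189 RPKM. edgeR called 0 of the 10 and 0 of 19560 promoters in each comparison, with 0 of the 10 at an unadjusted p under 0.05 and 106 to 364 of all promoters, and DESeq2 called 0 as well. Without pre-iPSC replicate 2 edgeR called Cldn3 and Cldn4 in pre-iPSCs against MEFs and Grhl2 in iPSCs against pre-iPSCs, with the library that stands apart as the only pre-iPSC sample. The same refit called 4580 and 2139 of all 19603 promoters tested in these comparisons. Within the second replicates alone, Cdh1 was at 0.369 RPKM in the MEF, 0.226 RPKM in the pre-iPSC and 0.222 RPKM in the iPSC library, and Epcam at 0.252, 0.276 and 0.243 RPKM. Cldn4 was at 0.320, 0.237 and 0.324 RPKM, and Grhl2, with little RNA, at 0.302, 0.226 and 0.205 RPKM. The median of the 10 was 0.282, 0.226 and 0.224 RPKM. Each of these values rests on 1 library and was not tested.

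H3K9me3 was measured in 1 library of each cell type, so its differences were not tested. The 10 promoters together held 147 reads in MEFs, which was 1.90 times the mean promoter (exact Poisson interval of 95%, 1.60 to 2.23, which covers counting error only). They held 101 reads in pre-iPSCs, at 1.20 times (0.981 to 1.46), and 107 reads in iPSCs, at 1.19 times (0.971 to 1.43). The median of the 10 was 0.508 RPKM in MEFs, 0.265 RPKM in pre-iPSCs and 0.364 RPKM in iPSCs. Promoters of genes listed at 0 in the same cell type had medians of 0.361, 0.312 and 0.298 RPKM. Over all promoters the medians were 0.197, 0.234 and 0.265 RPKM. In MEFs, Cldn7 had 22 reads and Cdh1 21 reads, at the 97.9 and 97.1 percentile of all promoters. Cdh1 was at 8 reads in pre-iPSCs and 11 reads in iPSCs. Not every promoter was lower after MEFs. Grhl2 had 11, 22 and 11 reads in MEFs, pre-iPSCs and iPSCs, and was the highest of the 10 in pre-iPSCs. Cldn6 had 8, 8 and 14 reads and Esrp2 8, 6 and 15 reads, both with the most in iPSCs.

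The 6 transcription factors known to repress Cdh1 fell from MEFs to iPSCs. In pre-iPSCs against MEFs 5 of the 6 fell, where 9% of all genes fell, and in iPSCs against MEFs 6 of 6 fell, where 15.5% of all genes fell. In iPSCs against pre-iPSCs limma called 0 of the 6 in every setting tried, where 3.91% of all genes rose and 4.71% fell, and 1 of the 6 and 2684 of all 12401 genes had an unadjusted p under 0.05. Snai2, which encodes Slug, was at 49.5 and 28.7 FPKM in MEFs, at 4.03 and 1.89 FPKM in pre-iPSCs and at 1.67 and 1.81 FPKM in iPSCs. It fell by 3.82 in iPSCs against MEFs (SE 0.40). In the same comparison Twist1 fell by 3.17 (SE 0.44), Twist2 fell by 3.47 (SE 0.51) and Zeb2 fell by 2.02 (SE 0.45). Without iPSC replicate 1, 2 of the 6 were called in iPSCs against MEFs.

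**Figure D4:**
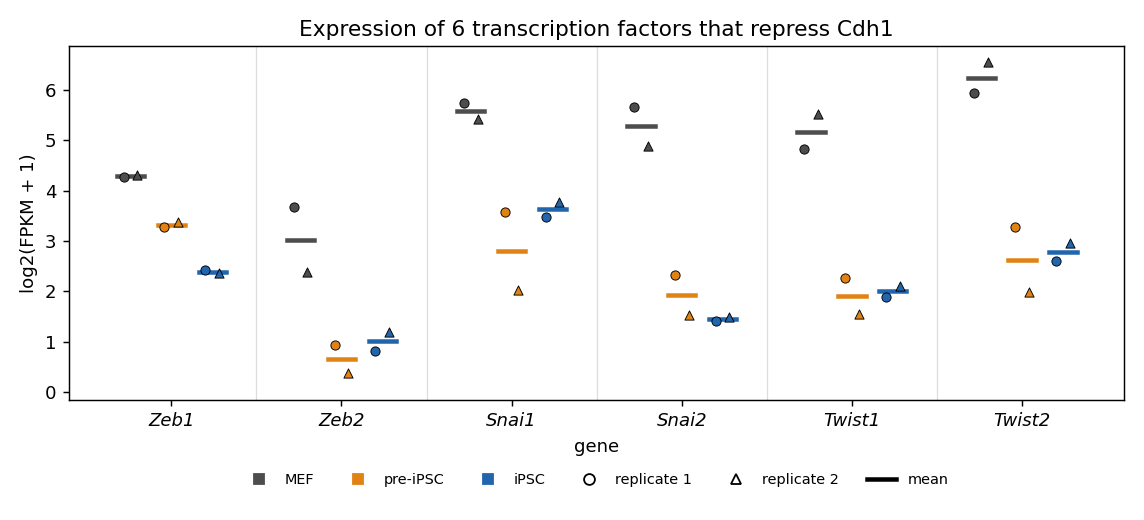
Expression of 6 transcription factors known to repress Cdh1. The y axis gives log2(FPKM + 1), circles and triangles are replicates 1 and 2 and bars their mean. For 6 of 6 both MEF points lie above all pre-iPSC and iPSC points.

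The other genes of epithelial junctions were counted from lists. Of 22 further tight junction genes 16 were tested, of which 7 rose and none fell in pre-iPSCs against MEFs, and 9 rose and none fell in iPSCs against MEFs, where 7.39% and 10.3% of all genes tested rose. From pre-iPSCs to iPSCs 1 rose and 2 fell, where 3.91% of all genes rose and 4.71% fell. Lsr, a receptor that recruits proteins to tricellular contacts, was at 0.340 and 0.406 FPKM in MEFs, at 26.3 and 18.1 FPKM in pre-iPSCs and at 29.6 and 25.4 FPKM in iPSCs, and rose by 4.37 ± 0.36 in iPSCs against MEFs. Crb3, a polarity protein of the apical membrane, rose by 3.06 ± 0.45, and the tight junction scaffolds Tjp3 and Cgn rose by 2.48 ± 0.33 and 2.26 ± 0.41. Without iPSC replicate 1 or 2 the count for iPSCs against MEFs was 5 and 2, and without pre-iPSC replicate 1 or 2 that for pre-iPSCs against MEFs was 4. The 3 calls of iPSCs against pre-iPSCs became 1 without iPSC replicate 1, iPSC replicate 2 or pre-iPSC replicate 2. Cldn11, a claudin that was named here after its values were seen, was at 62.0 and 49.2 FPKM in pre-iPSCs and at most 0.258 FPKM in the other 4 libraries, a pattern found in none of the 4 claudins above.

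Of 8 desmosome genes tested, 5 rose and 1 fell in pre-iPSCs against MEFs, and 3 rose and none fell in iPSCs against MEFs. Of all genes 7.39% rose and 9% fell in the first comparison, and 10.3% rose in the second. In iPSCs against pre-iPSCs the median change was -0.91, none rose and 1 fell, where 4.71% of all genes fell, and 7 of the 8 and 2684 of all 12401 genes had an unadjusted p under 0.05. Dsg2, a desmosomal cadherin, was at 0.0507 and 0.0262 FPKM in MEFs, at 15.6 and 9.97 FPKM in pre-iPSCs and at 6.97 and 5.08 FPKM in iPSCs. It rose by 2.75 ± 0.37 in iPSCs against MEFs, Dsp, which encodes desmoplakin, by 1.46 ± 0.36, and Pkp3, a plakophilin, by 1.21 ± 0.37. Without iPSC replicate 1 or 2 the count of called genes in that comparison was 1, as it was without the filter on low values, and with a pseudocount of 0.1 FPKM it was 5. The count of iPSCs against pre-iPSCs was 0 without iPSC replicate 1 or 2 and 4 without MEF replicate 1 or 2.

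Adherens junction genes other than Cdh1 did not move as one group. Of 11 tested, 2 rose and 1 fell in pre-iPSCs against MEFs, and 4 fell and none rose in iPSCs against MEFs. Of all genes 7.39% rose and 9% fell in the first comparison, and 15.5% fell in the second. From pre-iPSCs to iPSCs 1 rose and 1 fell, where 3.91% of all genes rose and 4.71% fell. Cdh2, the N-cadherin of mesenchymal cells, was at 56.2 and 18.9 FPKM in MEFs, at 12.0 and 4.34 FPKM in pre-iPSCs and at 1.01 and 2.38 FPKM in iPSCs, and fell by 3.69 (SE 0.58). Jup, plakoglobin, peaked in pre-iPSCs at 84.5 and 92.9 FPKM, and fell by 1.28 in iPSCs against MEFs (SE 0.33). Ctnnd1, a catenin, fell by 1.62 (SE 0.35) and Pvrl3, a nectin, fell by 1.64 (SE 0.49). Without pre-iPSC replicate 1 or 2 the count of called genes in pre-iPSCs against MEFs was 1, without MEF replicate 2 it was 6, and without iPSC replicate 1 or 2 that in iPSCs against MEFs was 1. That of iPSCs against pre-iPSCs was 0 without iPSC replicate 1 or 2, 1 without pre-iPSC replicate 1 or 2 and 4 without MEF replicate 1 or 2.

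Of 21 other epithelial genes 18 were tested, of which 11 rose and 2 fell in pre-iPSCs against MEFs, and 11 rose and 2 fell in iPSCs against MEFs. The genes were not all the same. Krt19, a keratin that was named here after its values were seen, rose by 3.07 ± 0.44 in the first comparison and fell by 2.20 (SE 0.44) in the second. Of all genes 7.39% rose and 9% fell in the first comparison, and 10.3% rose and 15.5% fell in the second. In iPSCs against pre-iPSCs 4 rose and 3 fell, where 3.91% of all genes rose and 4.71% fell. These 7 calls became 1 without iPSC replicate 1, 0 without iPSC replicate 2 and 11 without MEF replicate 2. Elf3, an epithelial transcription factor, was at 0 and 0.0414 FPKM in MEFs, at 4.11 and 5.12 FPKM in pre-iPSCs and at 14.9 and 14.3 FPKM in iPSCs, and rose by 3.94 ± 0.36 in iPSCs against MEFs. The membrane protease St14 rose by 3.08 ± 0.38 and its inhibitors Spint1 and Spint2 by 4.44 ± 0.38 and 4.15 ± 0.44. Without iPSC replicate 2 the count of called genes in iPSCs against MEFs was 7, and without the filter on low values it was 8.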

How the data were processed

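The 10 genes, the lists and the tests were chosen with earlier results of these data known. For the ChIP-seq files the authors used Bowtie 1.0.1 on the mm9 genome, retained unique reads and ran GeneTrack to call nucleosomes. The deposited values used here are the counts of reads of each call, and a fuzziness score, which the authors computed from the spread of read positions, was not used. Calls held 67362868 to 108211816 reads per H3 library and 12007350 to 15222040 per library of the marks. For the RNA-seq files the authors aligned reads with TopHat2 2.0.4 and computed the deposited FPKM with Cufflinks 2.0.2, in 2 tables that each hold 1 replicate of every cell type. The FPKM tables give no depth, and the read totals that the study lists for the RNA libraries were not used.

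Reads of calls with the centre within 1000 bp of the TSS were summed for 20156 genes. The sums were tested by quasi-likelihood in edgeR 4.0.16, after filterByExpr and TMM (Benjamini-Hochberg adjusted p below 0.05), with SE taken as the change over the root of F, and again with DESeq2 1.42.0. RPKM were scaled to the unique reads that the study lists. log2(FPKM + 1) was tested with limma 3.58.1 (trend, table as a term) where a gene averaged 0.5 FPKM or more. All comparisons with one cell type share its libraries. Genes of a list were named if called in iPSCs against MEFs, up to 4 with the largest change. Sequences come from the NCBIM37 (mm9) genome, with TSSs as the deposited tables give them. The promoter sequence of Esrp1 is not reported here. Tests were checked on simulated data for pre-iPSCs against MEFs. Of 50 genes planted at a log2 change of 1 limma recovered 2, and of 50 planted at 2 it recovered 39. Of 50 planted at 3 and 50 planted at 4 it recovered 49 and 50. A gene planted at 1 sits at the smallest change that an expression call allows. In H3K4me3 edgeR recovered 29 of 50 promoters planted at 1 and 13 of 50 planted at -1. For H3K27me3 edgeR recovered 10 of 50 planted at 1 and 3 of 50 planted at -1. Of 50 planted at 2 it recovered 50 in H3K4me3 and 50 in H3K27me3. In H3 edgeR recovered 1, 9 and 37 of 50 planted at 1, 2 and 3, and 0 of 50 planted at -1. The simulation left 12201 of 12401 genes unchanged, whereas limma called 2032 in the data, so its shares need not hold there. R 4.3.3 and Python 3.11.15 were used. Alternatives to scaling, filters, windows, tools and libraries are given in the closing part.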

Additional observations from a re-analysis of the deposited data

How the results depend on the processing

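The values are the numbers of the 10 genes called. Without the filter on low values limma called 2 at the step from MEFs to pre-iPSCs, 3 at the step to iPSCs and 5 between MEFs and iPSCs, and with a pseudocount of 0.1 FPKM it called 8, 5 and 8. Calls over all genes fell without the filter and rose with that pseudocount. H3K4me3 in iPSCs against MEFs gave 0 with DESeq2, and 1 when scaled to unique reads, when scaled to reads in calls, and in a window of 500 bp. H3K27me3 gave 0 with DESeq2 in either comparison with MEFs, and in the 500 bp window 0 in pre-iPSCs against MEFs and 2 in iPSCs against MEFs. At 5 FPKM 2 genes were first on in pre-iPSCs. With calls of at least 2 reads the H3K9me3 of MEFs was 2.30 times the mean promoter. Leaving out 1 library gave, for pre-iPSCs against MEFs, iPSCs against pre-iPSCs and iPSCs against MEFs in that order, 5 to 6, 1 to 6 and 5 to 8 in expression, 0 to 2, 0 to 1 and 0 in H3, 0 to 1, 0 and 2 to 5 in H3K4me3, and 0 to 3, 0 to 1 and 2 to 4 in H3K27me3. A lone library was taken to vary like the others. The cause of these shifts was not tested.

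Libraries of one number deviated together in some pairs and not in others (r from -0.20 to 0.79). The highest r was that of pre-iPSCs and iPSCs in H3, and the lowest that of MEFs and iPSCs in expression. Whether the numbers pair the samples was therefore not settled, and tests were run with and without the block. The replicate block left the calls at 0 in H3, at 0, 0 and 5 in H3K4me3 and at 3, 0 and 4 in H3K27me3, and expression with no replicate block gave 6, 4 and 8, with Cdh1 lost at the step to iPSCs (limma, adjusted p = 0.0601). The 31 called results kept their direction in all 365 refits, and 88 of these missed the threshold. The kept direction is no independent support, since the refits reuse the same libraries and several cannot alter the size of a change. Of 86 results that were not called, 44 changed sign in some refit, 24 of them in H3 and 4 in H3K27me3, and 11 were called in some refit. The refits include scalings that shift all promoters alike.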
